A study of Mus musculus with 9 samples.

Results

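The clustered protocadherins are the cadherin-like cell surface proteins encoded in tandem at the Pcdha, Pcdhb and Pcdhg loci, which lie next to each other on mouse chromosome 18. They were followed here in RNA of the mouse prefrontal cortex. Members were all genes of the deposited table whose symbol names a Pcdha, Pcdhb, Pcdhga, Pcdhgb or Pcdhgc isoform, which gave 53 of the 14444 genes. The alpha cluster contributed 10 members, the beta cluster 21 and the gamma cluster 22. The RefSeq annotation names 58 such genes, and Pcdha4, Pcdha6, Pcdha7, Pcdha8 and Pcdhb1 were not analysed here. No filter on low values was applied, so all 53 members entered every test given here, and each had at least 3 reads in each library.

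The comparison had 3 groups, each of 3 libraries of total RNA from prefrontal cortex of mice aged postnatal weeks 5 to 8. The first was wild-type mice given saline (WT-1 to WT-3). The second was mice labelled only with the genotype Shank3, called Shank3 mutant here, given saline (SAL-1 to SAL-3); the allele and the number of altered copies are not given in the labels. Shank3 encodes a scaffold protein of excitatory synapses. The third was Shank3 mutant mice given UNC0642, an inhibitor of the histone H3 lysine methyltransferases EHMT1 and EHMT2, at 1 mg/kg by intraperitoneal injection 1 time per day for 3 days (UNC-1 to UNC-3). There was no wild-type group given UNC0642. Whether each library of a group is a different animal is not stated in the labels, and the spread behind every p-value may therefore be technical. The series title places the comparison in the question of whether blocking EHMT1/2 alters social deficits of Shank3-deficient mice.

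Each member of the alpha and gamma clusters has its own promoter and a large variable exon, which encodes the ectodomain, the membrane span and part of the cytoplasmic tail. This exon is spliced to 3 constant exons shared by the cluster. Beta members consist of a single large exon each. In neurons a few alternate isoforms are switched on per cell by promoter choice, in which the insulator protein CTCF, cohesin and DNA methylation take part, and the resulting mixture gives a cell a surface identity used in the self-avoidance of neurites. The C-type members, Pcdhac1, Pcdhac2, Pcdhgc3, Pcdhgc4 and Pcdhgc5, lie at the end of the alpha and gamma clusters and are used more uniformly among cells of a type.

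Library size and structure were as follows. The deposited values are called CPM by the submitters, but they had been shifted per gene so that WT-1 to WT-3 with UNC-2 and UNC-3 had the same mean log2 value as SAL-1 to SAL-3 with UNC-1. With that shift the difference between 2 group means depends on how the UNC0642 libraries deviate, and whole reads were therefore recovered from the values (12035098 to 16165483 per library). They are given below as a gene's reads per 1000000 reads of its library (RPM). For saline mutant against wild type, the shift means that a lack of calls in the deposited values cannot weigh against calls in these reads. In the recovered reads, 52.0% of the variance of all genes lay on a component that put the wild-type libraries and UNC-3 (scores 0.24 to 0.51) opposite the saline mutants with UNC-1 and UNC-2 (scores -0.33 to -0.22), and on all 11 genes at least 8-fold apart between wild type and saline mutant UNC-3 lay on the wild-type side. No member was among these 11 genes. The library labelled UNC-3 thus stands apart from its group, this division and the genotype cannot be told apart in the saline groups, and the comparisons that use UNC-3 are given with and without it for the members they turn on. In fits with the division as a term, UNC-3 alone tells the division apart from the groups, so the term rests on that library. There UNC0642 against saline mutant draws on UNC-1 and UNC-2, and UNC0642 against wild type on UNC-3 alone. Group means, SDs and counts of libraries that do not overlap include UNC-3. Shank3 itself was at 295 to 357 RPM in wild type, 321 to 349 in saline mutants and 294 to 319 with UNC0642, so its read count did not separate the genotypes. Neuronal markers for the tissue were abundant (6703 to 7737 RPM over 7 excitatory neuron genes), and of 6 choroid plexus markers the single one measured, Kl, was at 2.17 to 3.70. In bulk tissue, fewer cells of a type and less RNA per cell cannot be told apart.

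The 3 most abundant members were the C-type members Pcdhgc5, Pcdhgc3 and Pcdhac2. Pcdhgc5 had the highest level, with 116, 118 and 99.8 RPM in wild type, 101, 96.2 and 106 in saline mutants and 96.9, 103 and 102 with UNC0642. Its libraries overlapped between all groups. Pcdhgc3, which in mouse cortex is known for promoting dendrite branching, had 59.3, 61.4 and 89.0 in wild type, 55.9, 55.0 and 52.3 in saline mutants and 47.3, 49.3 and 70.0 with UNC0642. All 3 saline mutants lay below all 3 wild-type libraries, and WT-3 and UNC-3 stood above the others.

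Pcdhac2, which is known for the tiling of serotonergic axons, had 34.6, 36.5 and 31.4 RPM in wild type, 34.0, 31.7 and 35.8 in saline mutants and 35.3, 42.1 and 31.7 with UNC0642. The groups overlapped, with UNC-2 the highest library. Pcdhgc4, the gamma isoform on which the survival of inhibitory neurons is known to depend, had 11.6, 15.7 and 12.8 in wild type, 15.1, 12.2 and 12.6 in saline mutants and 11.3, 13.7 and 15.9 with UNC0642, again overlapping. Pcdhac1, the first of the C-type promoters of the alpha cluster, had 2.58, 3.09 and 3.29 in wild type, 4.86, 3.48 and 3.76 in saline mutants and 5.31, 5.26 and 2.71 with UNC0642. Every saline mutant library and both UNC-1 and UNC-2 were above every wild-type library, and UNC-3 was within the wild-type range.

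Per length of own sequence the same 3 C-type members led the order. RPM per kb of coding sequence not shared with another gene averaged 42.4 for Pcdhgc5, 24.7 for Pcdhgc3 and 13.6 for Pcdhac2 over the 9 libraries. The highest alternate isoform, Pcdhga11, followed at 7.63 on this scale, Pcdhgc4 was 8th of 52 members at 5.48 and Pcdhac1 was 39th at 1.57. The median alternate isoform had 1.34 in the alpha cluster, 2.03 in the beta cluster, 3.13 in gamma A and 1.73 in gamma B. Pcdhac1 and Pcdhgc4 thus lay within the range of the alternate isoforms (0.368 for Pcdha1 to 7.63 for Pcdhga11), and the other 3 C-type members lay above it. Pcdha10 has no length in the annotation used and is left out of this order. Pcdha11 has 4776 own coding bases, against 2346 to 2481 for the other alternate alpha members in the order. Its level per kb and the alpha median depend on that length. Pcdhga4 has 1570 own coding bases, against 2316 to 2439 for the other gamma A members. The level of Pcdhga4 per kb and its place in this order depend on that short length. With all exonic bases in place of coding bases, the first 4 members were unchanged in order, and Pcdhac1 was 28th.

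**Figure D1:**
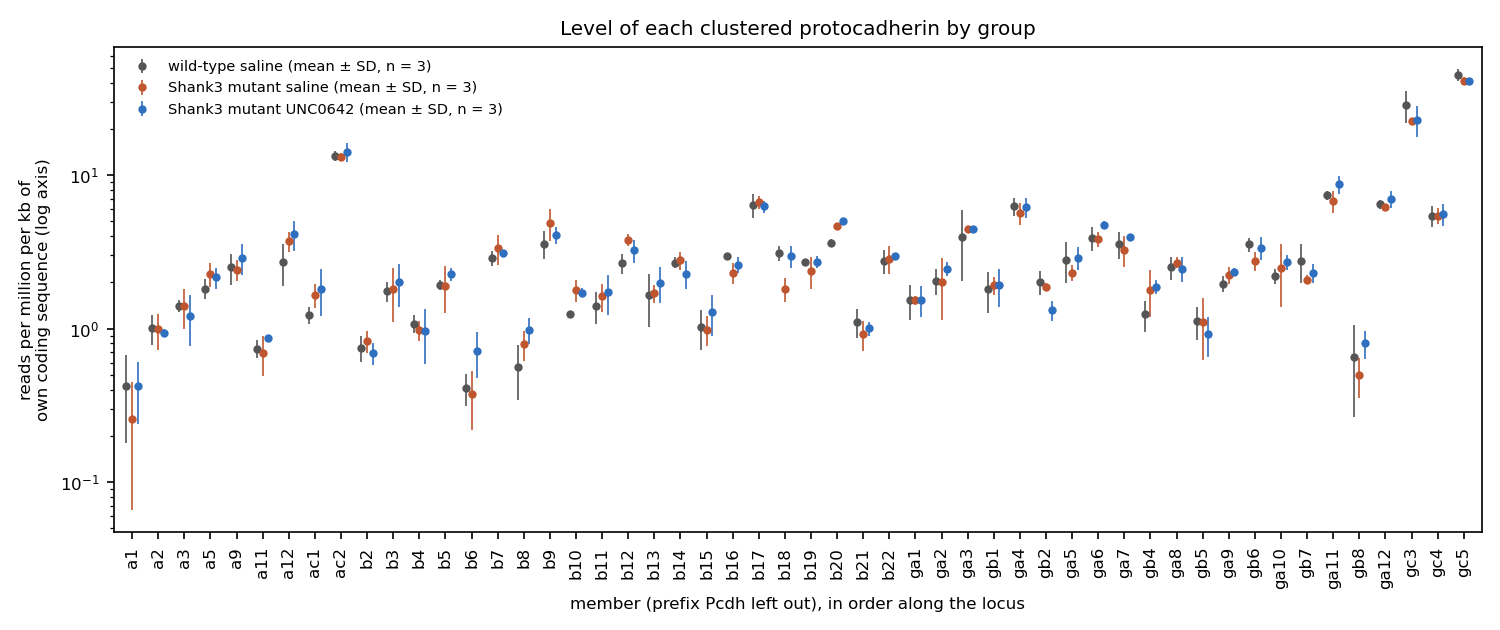
Mean ± SD (n = 3 libraries a group) of RPM per kb of own coding sequence, on a log axis, for 52 members in their order along the locus; grey is wild-type saline, orange saline mutant and blue UNC0642 mutant. Pcdhgc5, Pcdhgc3 and Pcdhac2 lie above 10 in all groups, and most other members lie between 0.5 and 8.

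Summed over clusters, gamma members had 316, 330 and 338 RPM in wild type, 291, 293 and 310 in saline mutants and 298, 314 and 331 with UNC0642. All 3 saline mutant sums were below the 3 wild-type sums, and the UNC0642 libraries overlapped both groups. Beta members summed to 108, 116 and 109 in wild type, 111, 116 and 126 in saline mutants and 124, 124 and 116 with UNC0642, and alpha members to 68.1, 69.4 and 61.4, then 67.6, 67.9 and 75.0, then 81.5, 83.3 and 62.7. For alpha, UNC-1 and UNC-2 were the highest of all 9 libraries and UNC-3 was in the wild-type range.

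The whole family came to 506 ± 12.6 (SD, n = 3) RPM in wild type, 486 ± 22.4 in saline mutants and 511 ± 9.47 with UNC0642. These sums are descriptions without a test. The log2 ratio of the gamma sums of saline mutant over wild type was -0.14. For UNC0642 over saline mutant the ratio was 0.11 for alpha (0.23 without UNC-3), 0.04 for beta (0.07) and 0.08 for gamma (0.04). Within the cluster, the 3 gamma C-type members had 194 ± 7.46 in wild type, 169 ± 4.93 in saline mutants and 170 ± 16.5 with UNC0642, while gamma A members had 102 ± 3.62, 100 ± 10.5 and 114 ± 3.82. In the deposited values, whose shift sets the group differences, both gamma ratios were -0.01. In RPM, gamma A sums with UNC0642 (110.3, 118 and 115) were above every library of the other groups (89.2 to 110.1).

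As a share of all member reads, the 5 C-type members took 45.8% ± 0.561 in wild type, 42.6% ± 2.10 in saline mutants and 41.2% ± 2.37 with UNC0642 (SD, n = 3), and the 48 alternate isoforms the rest. Pcdhac2 alone accounted for 49.3% of alpha reads on average, and Pcdhgc5 and Pcdhgc3 for 33.3% and 19.0% of gamma reads. The beta cluster was more evenly divided, with Pcdhb17 at 13.2%, Pcdhb20 at 9.08% and Pcdhb9 at 8.84% of its reads.

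**Figure D2:**
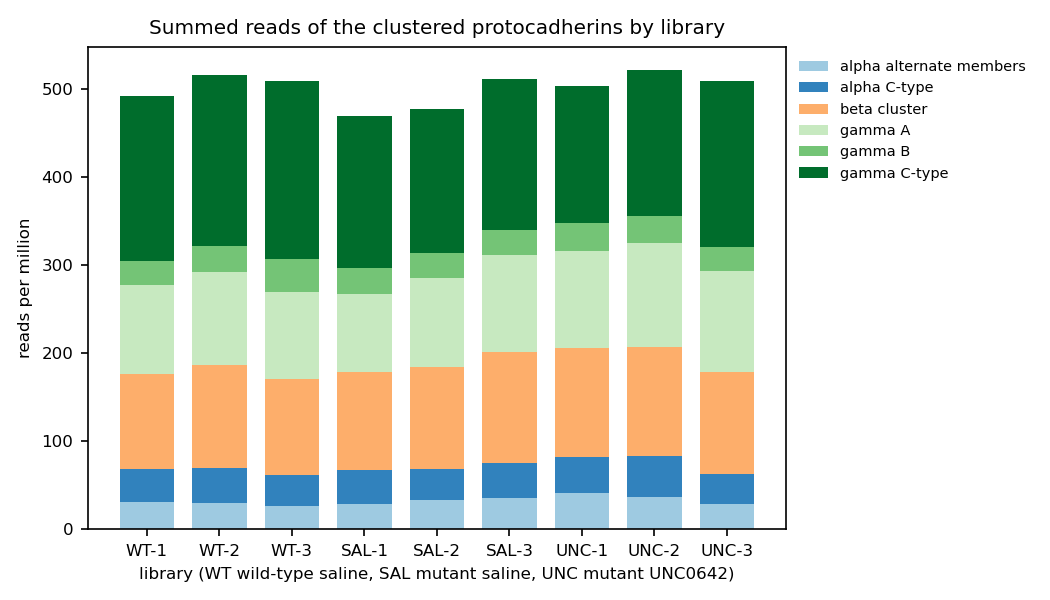
Stacked RPM of the members in each of the 9 libraries, by subgroup. Gamma C-type members form the largest block in every library, at 155 to 202, and the total runs from 469 to 522.

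Among the alternate alpha isoforms, which share 9.42% to 15.0% of their 50-base windows with another isoform, so that reads may be split between them, Pcdha12 and Pcdha9 were the most abundant. Pcdha12 had 8.81, 5.13 and 5.71 RPM in wild type, 7.41, 9.98 and 9.20 in saline mutants and 11.04, 11.1 and 7.33 with UNC0642. Its 2 highest libraries were UNC-1 and UNC-2, and WT-1 overlapped the saline mutants. Pcdha9 had 5.65, 7.84 and 5.14, then 5.42, 5.45 and 7.04, then 8.66, 7.36 and 5.42 in the same order of groups, and Pcdha5 had 4.90, 4.30 and 3.62, then 4.22, 5.65 and 5.995, then 5.31, 5.69 and 4.16. Both overlapped between all groups.

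Pcdha3 had 3.66, 3.32 and 3.05 RPM in wild type, 2.31, 3.42 and 4.25 in saline mutants and 4.01, 2.60 and 1.98 with UNC0642, with no separation of groups. The other alternate alpha isoforms were lower. Pcdha11 averaged 3.53 ± 0.465 in wild type, 3.31 ± 0.977 in saline mutants and 4.17 ± 0.0756 with UNC0642, and all 3 UNC0642 libraries were above the wild-type ones. Pcdha10 (1.83 ± 0.217, 2.55 ± 1.11 and 2.71 ± 1.05) and Pcdha2 (2.39 ± 0.517, 2.37 ± 0.624 and 2.24 ± 0.129) had 22 to 54 reads per library. Pcdha1 (1.01 ± 0.584, 0.617 ± 0.460 and 1.01 ± 0.432) had 3 to 21 reads per library, a depth at which differences of the size seen in other members were not detectable.

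The beta cluster held the member with the clearest separation of groups. Pcdhb18 had 6.81, 7.01 and 8.36 RPM in wild type (82, 93 and 104 reads), 3.43, 4.73 and 4.74 in saline mutants (43, 72 and 68 reads) and 5.80, 8.17 and 7.20 with UNC0642 (71, 132 and 109 reads). The saline mutants lay below all 6 other libraries. It was the only member called in the recovered reads for saline mutant against wild type (limma-voom, log2 difference -0.77, SE 0.21, 95% interval -1.23 to -0.32, adjusted p = 0.036 over all genes), a comparison in which 11.9% of all genes were called. With the division of libraries as a term, which rests on UNC-3 alone, the difference was of like size (-0.74, SE 0.35). No gene was called in that fit (0%), Pcdhb18 included (limma adjusted p = 0.97).

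For UNC0642 against saline mutant, which shares the saline mutant libraries with the former comparison, Pcdhb18 was 0.72 higher (SE 0.21, limma adjusted p = 0.97; 0% of genes called), and 0.71 higher (SE 0.24) without UNC-3. The call against wild type was lost without WT-2, WT-3, SAL-1, SAL-2 or SAL-3, with differences of -0.85 to -0.63 and limma adjusted p of 0.07 to 0.13. In the deposited values Pcdhb18 read 5.70, 5.74 and 6.65 in wild type, 4.62, 6.25 and 6.31 in saline mutants and 7.58, 6.63 and 5.84 with UNC0642, where the groups overlap.

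Pcdhb20 had 9.06, 8.22 and 8.84 RPM in wild type, 11.2, 10.6 and 11.6 in saline mutants and 11.7, 12.5 and 11.7 with UNC0642. All 6 mutant libraries were above the wild-type ones, and within groups its libraries varied less than counting alone would give on average (ratio 0.298 of observed to counting variance). Its difference was not called for saline mutant against wild type (recovered reads, 0.36, SE 0.14, limma adjusted p = 0.096) or for UNC0642 against wild type (0.46, SE 0.14, limma adjusted p = 0.15; 0.0554% of genes called). In the deposited values the latter was 0.36 (SE 0.13, limma adjusted p = 0.58).

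Pcdhb17, the most abundant beta member, had 12.8, 18.3 and 15.1 RPM in wild type, 15.2, 14.9 and 17.8 in saline mutants and 16.5, 13.8 and 14.6 with UNC0642, and Pcdhb9 had 9.31, 10.5 and 6.91, then 11.6, 9.46 and 15.1, then 10.1, 11.4 and 8.85. Neither separated the groups. Pcdhb8 had 0.914, 1.88 and 1.13 in wild type, 1.99, 2.17 and 1.39 in saline mutants and 2.21, 2.78 and 1.92 with UNC0642, and the UNC0642 libraries were all above wild type. Pcdhb6, the lowest beta member at 6 to 27 reads per library, had 0.831, 1.21 and 0.804, then 0.478, 0.919 and 1.19, then 2.21, 1.61 and 1.12, with UNC-1 and UNC-2 highest.

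Of the remaining 15 beta members, Pcdhb10 and Pcdhb12 were higher in every saline mutant than in every wild-type library. Pcdhb10 averaged 2.97 ± 0.0764 in wild type, 4.26 ± 0.674 in saline mutants and 4.10 ± 0.281 with UNC0642, and Pcdhb12 averaged 6.31 ± 0.962, 8.96 ± 0.816 and 7.64 ± 1.31 RPM. Pcdhb16 was lower in every saline mutant library, at 7.19 ± 0.255, 5.55 ± 0.888 and 6.28 ± 0.726. The others overlapped between wild type and saline mutant.

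Pcdhb7 (7.15 ± 0.805, 8.27 ± 1.78 and 7.76 ± 0.378 RPM in wild type, saline mutant and UNC0642), Pcdhb22 (6.58 ± 1.16, 6.80 ± 1.42 and 7.05 ± 0.350), Pcdhb19 (6.52 ± 0.255, 5.70 ± 1.38 and 6.54 ± 0.550) and Pcdhb14 (6.43 ± 0.514, 6.65 ± 0.870 and 5.45 ± 1.14) were in the upper part of the cluster. An intermediate set had Pcdhb5 (4.57 ± 0.353, 4.53 ± 1.53 and 5.38 ± 0.531), Pcdhb3 (4.14 ± 0.619, 4.23 ± 1.64 and 4.72 ± 1.48), Pcdhb13 (3.93 ± 1.48, 4.05 ± 0.550 and 4.75 ± 1.25) and Pcdhb11 (3.36 ± 0.795, 3.87 ± 0.811 and 4.15 ± 1.22). The lowest were Pcdhb21 (2.55 ± 0.536, 2.14 ± 0.471 and 2.33 ± 0.245), Pcdhb4 (2.54 ± 0.325, 2.29 ± 0.340 and 2.26 ± 0.876), Pcdhb15 (2.40 ± 0.700, 2.32 ± 0.508 and 3.02 ± 0.907) and Pcdhb2 (1.79 ± 0.348, 1.99 ± 0.334 and 1.66 ± 0.281). Differences between group means in these 12 members were mostly within the spread of the libraries.

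**Figure D3:**
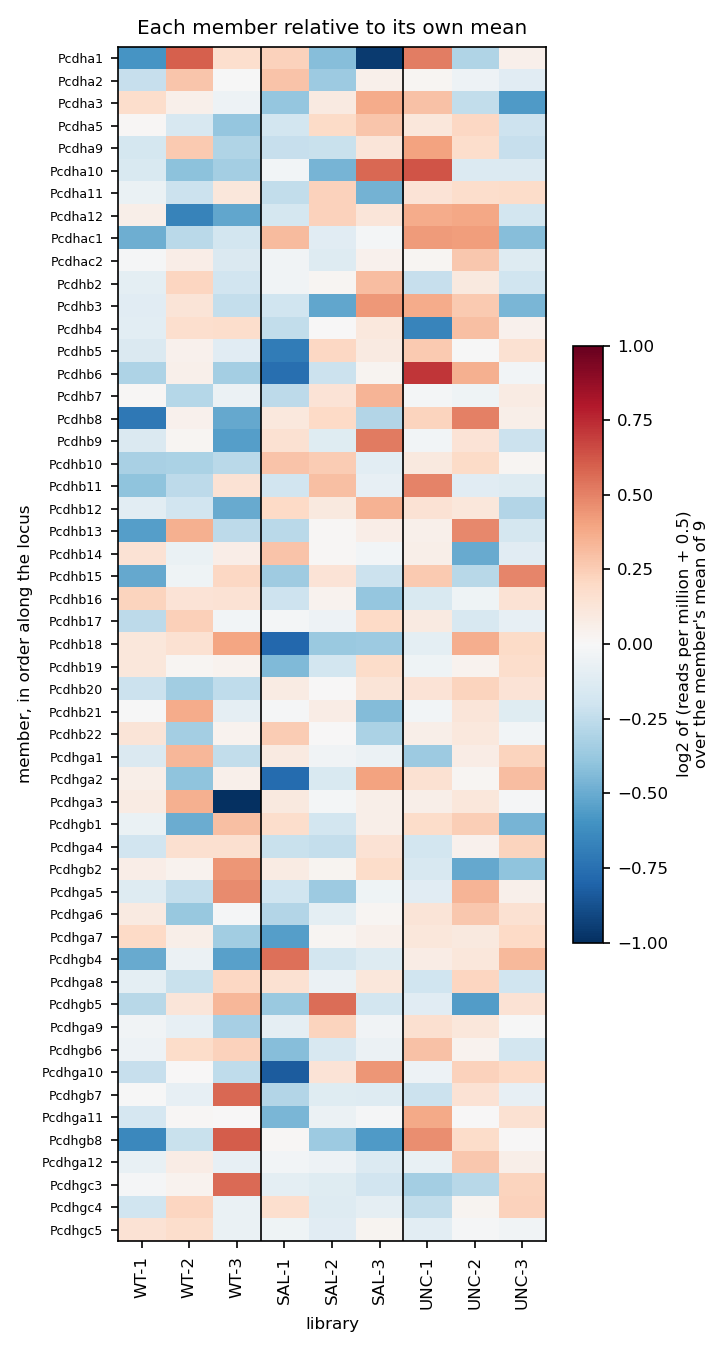
Log2 of RPM plus 0.5 in each library over the member's mean of the 9 libraries, for the 53 members in their order along the locus; black lines separate the groups, and colours are limited to -1 and 1. Pcdhb18 is low across the 3 saline mutants, Pcdhb20 is low across wild type, Pcdhgb2 is low across UNC0642 and Pcdhga3 is low in WT-3 alone.

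Gamma A isoforms had the highest median level per coding kb of the alternate subgroups (3.13). Pcdhga11 had 16.5, 18.7 and 18.6 RPM in wild type, 13.4, 17.8 and 18.3 in saline mutants and 24.2, 18.6 and 20.7 with UNC0642. Every UNC0642 library was above every saline mutant library, and UNC-2 was within the wild-type range. Its difference between UNC0642 and saline mutant was 0.34 (SE 0.14, limma adjusted p = 0.97) in the recovered reads, 0.34 (SE 0.16, limma adjusted p = 0.83) without UNC-3 and 0.32 (SE 0.14, limma adjusted p = 1) in the deposited values, and was not called in any of them.

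Pcdhga12 had 15.1, 16.7 and 15.0 RPM in wild type, 15.6, 15.3 and 14.4 in saline mutants and 15.1, 19.2 and 16.6 with UNC0642, overlapping throughout. Pcdhga3 had 10.97, 13.3 and 4.42 in wild type, 11.1, 10.2 and 10.8 in saline mutants and 10.8, 11.2 and 10.2 with UNC0642. WT-3, with 55 reads, was the single low library of 9, the others having 132 to 181 reads.

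Pcdhga6 averaged 9.43 ± 1.62 in wild type, 9.23 ± 1.03 in saline mutants and 11.5 ± 0.652 with UNC0642, where all 3 libraries were above the other 6. Pcdhga7 (8.67 ± 1.74, 7.92 ± 1.82 and 9.66 ± 0.385) was higher in every UNC0642 than in every saline mutant library, and Pcdhga9 (4.74 ± 0.564, 5.45 ± 0.695 and 5.67 ± 0.349) was higher in every UNC0642 than in every wild-type library. The other 6 gamma A members overlapped between all groups. They were Pcdhga4 (9.82 ± 1.38, 8.84 ± 1.46 and 9.71 ± 1.42), Pcdhga5 (6.83 ± 2.03, 5.59 ± 0.674 and 7.02 ± 1.22), Pcdhga8 (5.79 ± 1.00, 6.23 ± 0.510 and 5.69 ± 1.07), Pcdhga10 (5.28 ± 0.585, 5.97 ± 2.61 and 6.55 ± 0.721), Pcdhga2 (4.93 ± 0.941, 4.88 ± 2.13 and 5.94 ± 0.644) and Pcdhga1 (3.73 ± 0.954, 3.72 ± 0.233 and 3.72 ± 0.849).

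Gamma B had 7 members and a lower median level per coding kb than gamma A (1.73). Pcdhgb2 had 4.40, 4.30 and 5.87 RPM in wild type, 4.46, 4.27 and 4.81 in saline mutants and 3.68, 2.78 and 3.04 with UNC0642 (45 to 46 reads per library). It was the single member below all 6 other libraries in each UNC0642 library. Its difference was -0.53 (SE 0.22, limma adjusted p = 0.97) against saline mutant and -0.62 (SE 0.22, limma adjusted p = 0.19) against wild type in the recovered reads, and -0.56 (SE 0.17, limma adjusted p = 0.58) against wild type in the deposited values, so that it was not called. Without UNC-3 it was -0.51 (SE 0.26) against saline mutant and -0.61 (SE 0.26, limma adjusted p = 0.11) against wild type. Pcdhgb2 shares 16.4% of its 50-base windows with Pcdhgb1, and reads of these isoforms may be split between them.

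Pcdhgb1 itself had 4.24, 3.02 and 5.63 RPM in wild type, 5.10, 3.88 and 4.67 in saline mutants and 5.15, 5.38 and 3.10 with UNC0642, overlapping in all groups. Pcdhgb6, the most abundant gamma B member, had 7.48, 8.89 and 9.24, then 5.66, 6.90 and 7.46, then 9.65, 7.98 and 6.80, and Pcdhgb7 had 5.73, 5.43 and 8.84, then 4.62, 5.25 and 5.23, then 4.91, 6.43 and 5.42. Both were lower in every saline mutant than in every wild-type library, by a narrow margin (7.46 against 7.48 for Pcdhgb6).

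Pcdhgb8, which RefSeq lists as a transcribed pseudogene in the mouse, had 0.831, 1.28 and 2.65 RPM in wild type, 1.59, 1.12 and 0.906 in saline mutants and 2.37, 1.86 and 1.59 with UNC0642, at 10 to 33 reads per library. Both UNC-1 and UNC-2 were above the saline mutants. Pcdhgb4 averaged 2.92 ± 0.671 in wild type, 4.24 ± 1.43 in saline mutants and 4.42 ± 0.470 with UNC0642, where all libraries were above wild type. Pcdhgb5 averaged 2.69 ± 0.656, 2.65 ± 1.13 and 2.23 ± 0.649.

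**Figure D4:**
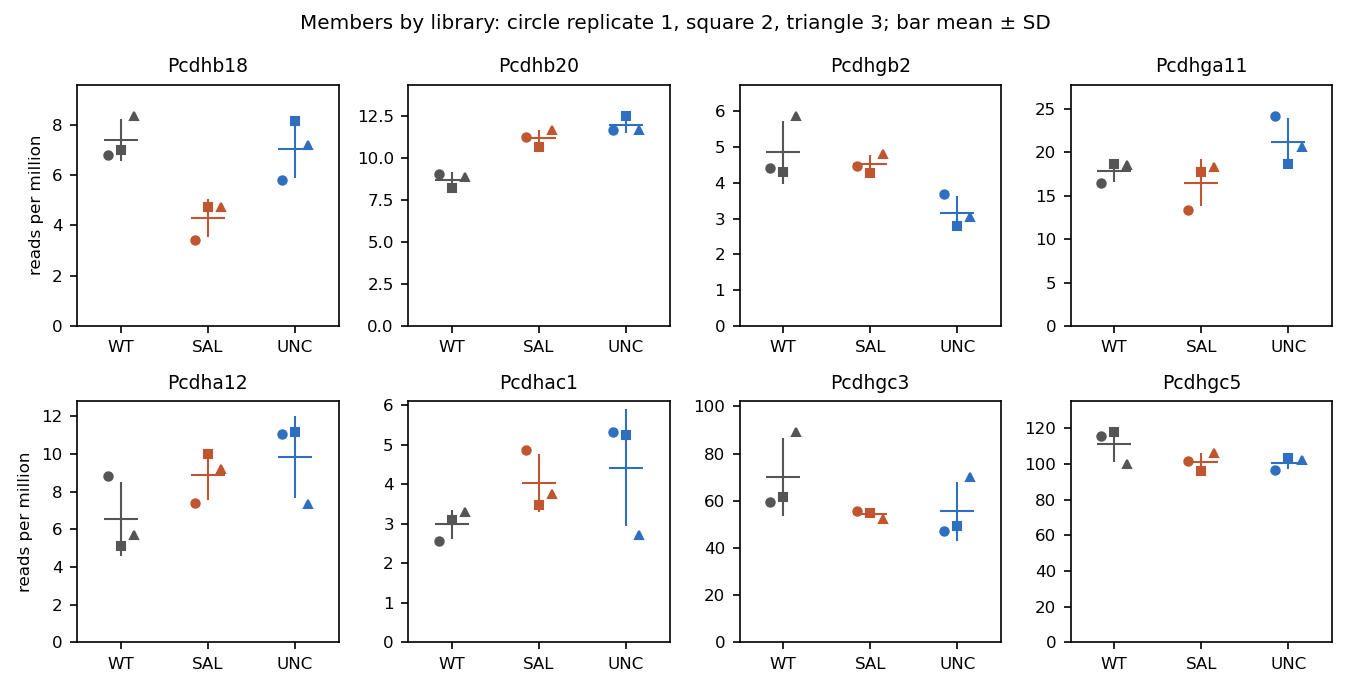
RPM by library for 8 members, with mean ± SD (n = 3) as bars and symbols for replicates 1 to 3; each axis starts at 0. In Pcdhb18 the saline mutants (3.43 to 4.74) lie below both other groups, in Pcdhgb2 the UNC0642 libraries (2.78 to 3.68) do, and in Pcdhac1 and Pcdhgc3 UNC-3 stands apart from UNC-1 and UNC-2.

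For saline mutant against wild type the members showed no common direction. In the deposited values 28 of 53 were higher and 25 lower, with a median log2 difference of 0.02 beside 0.00 over all genes, and none was called, as for all genes (limma, 0%; 0 members and 19 of all genes at an unadjusted p under 0.05). The smallest p of the members were those of Pcdhb20 (0.16, SE 0.13), Pcdhgb6 (-0.20, SE 0.17), Pcdhgb2 (-0.19, SE 0.17) and Pcdha3 (-0.24, SE 0.22), each at a limma adjusted p of 1. In the recovered reads 23 were higher and 30 lower, with a median of -0.02 and Pcdhb18 the single call. This is 1 of 53 members beside the 11.9% of all genes called, a count of 1725 genes that ran from 13 without WT-2 to 3550 without UNC-3.

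Group separation gave the same picture. Pcdhac1, Pcdhb10, Pcdhb12 and Pcdhb20 were higher in all 3 saline mutants than in all 3 wild-type libraries (4 members, 7.55%, beside 20.2% of all genes), and 5 members, Pcdhb16, Pcdhb18, Pcdhgb6, Pcdhgb7 and Pcdhgc3, were lower (9.43%, beside 20.5%). The shares of members were below those of all genes in both directions. Pcdhgc3 had a difference of -0.34 (SE 0.16, 95% interval -0.68 to 0.01, limma adjusted p = 0.16) in the recovered reads. Its sign was the opposite once the division was a term (0.20, SE 0.22, limma adjusted p = 0.98), and in the deposited values it was -0.04 (SE 0.14, limma adjusted p = 1). Leaving out UNC-3 from the fit, where 24.6% of all genes were called, added Pcdhb12 (0.51, limma adjusted p = 0.045).

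For UNC0642 against saline mutant, more members were higher than lower, by small amounts. In the deposited values 35 of 53 were higher, with a median of 0.10 (0.03 without UNC-2) beside 0.00 over all genes, and none was called (limma, 0% of genes; 3 members and 281 of all genes at an unadjusted p under 0.05). Pcdhga11, Pcdhb6 (0.57, SE 0.26), Pcdhgb2 (-0.37, SE 0.17) and Pcdha12 (0.33, SE 0.20) had the smallest p, each at a limma adjusted p of 1. In the recovered reads 37 were higher with a median of 0.10, and none was called (4 members at an unadjusted p under 0.05).

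The 5 libraries that lie on the same side of the division, SAL-1 to SAL-3 with UNC-1 and UNC-2, gave a comparison within a single side of it. There 38 of 53 members were higher with UNC0642 (71.7%, beside 55.4% of all genes), the median was 0.14 (0.08 without SAL-1) beside 0.02 over all genes, and no gene was called by limma-voom (0%; 3 members and 853 of all genes at an unadjusted p under 0.05). By subgroup, 7 of 8 alternate alpha members were higher (median 0.27), both alpha C-type members (0.31), 14 of 21 beta members (0.12), 10 of 12 gamma A members (0.19), 5 of 7 gamma B members (0.18) and none of the 3 gamma C-type members (-0.06). With UNC-3 kept, the recovered reads had 5 of 8 alternate alpha members higher (median 0.10), both alpha C-type members (0.09), 13 of 21 beta members (0.10), 11 of 12 gamma A members (0.20), 4 of 7 gamma B members (0.13) and 2 of 3 gamma C-type members (0.01), so that the gamma C-type direction turned. In the 5 libraries all 8 astrocyte markers were lower (median -0.14) and all 7 oligodendrocyte markers higher (median 0.52) with UNC0642, none of them called, and their part in the members' values was not tested. Members share a locus and are not independent, so these counts are descriptions.

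The individual members behind these counts had wide intervals. After Pcdhb18, Pcdhb6 was 1.13 higher (SE 0.44, 95% interval 0.18 to 2.09, limma adjusted p = 0.83), Pcdhga11 was 0.34 higher and Pcdhgb8 was 0.81 higher (SE 0.38, 95% interval -0.01 to 1.64). Single libraries moved some of these values: Pcdhga11 was 0.17 higher without UNC-1, 0.21 without SAL-1 and 0.55 without UNC-2, and Pcdhb18 was 0.43 higher without UNC-2. With each library left out in turn, Pcdhb6 was 0.81 to 1.39 higher and Pcdhgb8 0.64 to 1.01 higher. Pcdhgc3 differed by -0.17 (SE 0.08, 95% interval -0.34 to 0.00), Pcdhac2 was 0.21 higher (SE 0.10, 95% interval -0.02 to 0.43) and Pcdhgc5 differed by -0.01 (SE 0.07, 95% interval -0.16 to 0.14), the narrowest interval of the members.

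**Figure D5:**
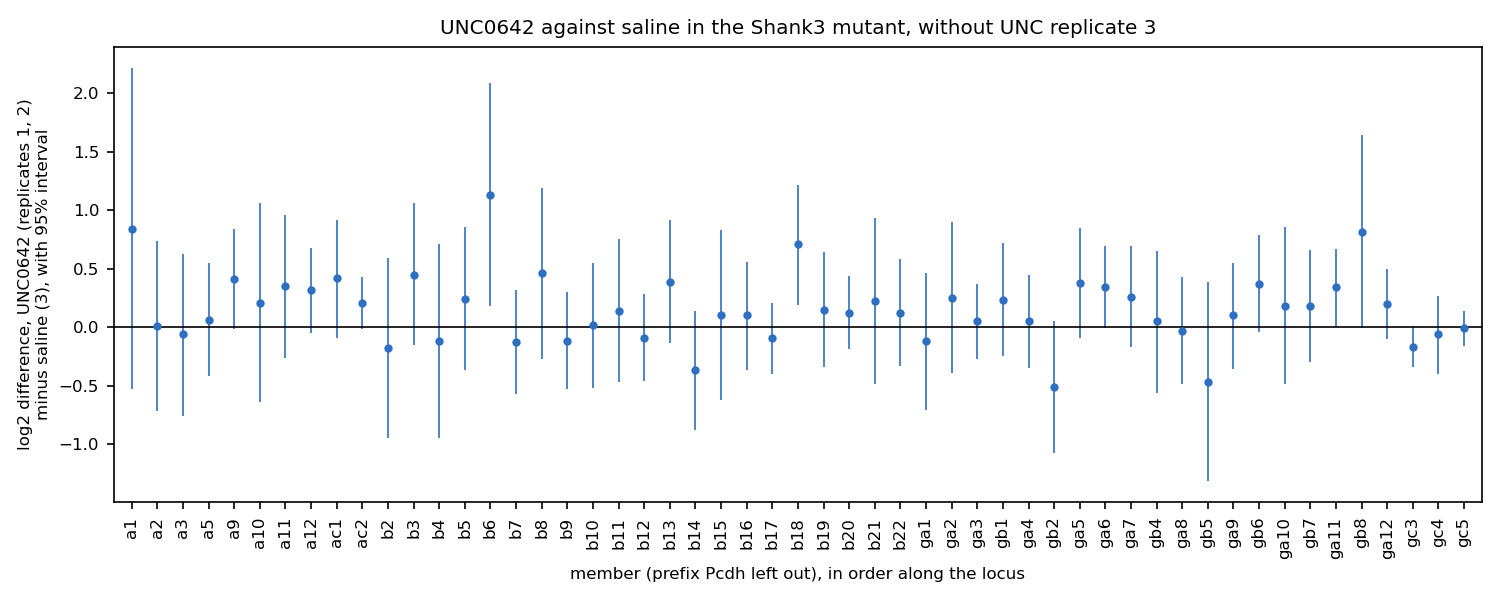
Log2 difference of UNC0642 (UNC-1 and UNC-2) minus saline (SAL-1 to SAL-3) in the Shank3 mutant from limma-voom on the recovered reads, with 95% intervals, for the 53 members in their order along the locus. Points above 0 are more common (38 of 53), and the intervals of 3 members, Pcdhb18, Pcdhb6 and Pcdhga11, start at or above 0.

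All 3 UNC0642 libraries lay above all 3 saline mutants for 5 members, Pcdhb18, Pcdhb20, Pcdhga6, Pcdhga7 and Pcdhga11 (9.43%, beside 5.8% of all genes), and below them for Pcdhgb2 (1.89%, beside 3.89%). Of these 5, Pcdhga6, Pcdhga7 and Pcdhga11 are gamma A isoforms. With the division as a term, where UNC-3 carries no weight in this comparison, the median was 0.14 and no member or other gene was called.

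For UNC0642 against wild type, 38 of 53 members were higher in the deposited values, with a median of 0.11 (0.07 without UNC-2 and 0.19 without UNC-3) beside 0.00 over all genes and no call (limma, 0%; 4 members and 1238 of all genes at an unadjusted p under 0.05). Pcdhgb2, Pcdhb20, Pcdhb8 (0.54, SE 0.24) and Pcdha12 (0.44, SE 0.20) had the smallest p, each at a limma adjusted p of 0.58. In the recovered reads 36 were higher with a median of 0.12 and none was called. Adding the division as a term, which sets UNC-3 alone against wild type, gave a median of 0.04, with 31 higher.

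All UNC0642 libraries were above wild type for 8 members (15.1%, beside 9.84% of all genes), namely Pcdha10, Pcdha11, Pcdhb8, Pcdhb10, Pcdhb20, Pcdhga6, Pcdhgb4 and Pcdhga9, and Pcdhgb2 had all of them below (1.89%, beside 7.62%). Without UNC-3 the remaining UNC0642 libraries and wild type lie on opposite sides of the division, which then cannot be told apart from the groups. In that fit 20.5% of all genes were called, and so were 4 members, Pcdhac1 (0.82, limma adjusted p = 0.031), Pcdha12 (0.81, limma adjusted p = 0.019), Pcdhb20 (0.48, limma adjusted p = 0.036) and Pcdhgc3 (-0.51, limma adjusted p = 0.024).

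The spread among libraries of a group was compared with counting error. Over the 53 members the ratio of observed to counting variance had a median of 2.87 (range 0.298 to 30.3), beside 3.34 over the 12052 genes with as many reads as members have, and was under 2 for 20 members. Pcdhgc3 had the highest ratio, 30.3, followed by Pcdhga3 at 9.58. The high Pcdhgc3 libraries were WT-3 and UNC-3, and the 8 astrocyte markers, all measured, summed to 7443 RPM in WT-3 and 7104 in UNC-3, against 4212 to 5642 in the 7 other libraries. Their part in the Pcdhgc3 level was not tested.

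Position along the locus went with level in part. From the first to the last promoter of a subgroup, Spearman's rho between order and mean level per coding kb was 0.64 over 7 alternate alpha members, 0.46 over 21 beta, 0.44 over 12 gamma A and -0.14 over 7 gamma B members. With all exonic bases it was 0.64, 0.16, 0.23 and -0.04. Both alpha values depend on the long own sequence given to Pcdha11 (4776 coding bases), which lowers its level per kb. The gamma A values depend in part on the short own sequence given to Pcdhga4 (1570 coding bases), which raises its level per kb. These correlations across genes of the same libraries are descriptions.

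Other genes of the pathway were read beside the members. Among 26 listed regulators of promoter choice and chromatin at the locus, 24 were measured. In the recovered reads 18 of them were lower in saline mutant than in wild type, where 48.4% of all genes were higher. Calls in either direction covered 11.9% of all genes, which is 1725 genes, 984 of them lower and 741 higher. Of the 24 regulators, 5 were called, all of them lower. These were Tet3, a dioxygenase that oxidises methylcytosine (65.7 ± 7.78 against 107 ± 6.68 RPM, log2 difference -0.70, SE 0.11, limma adjusted p = 0.013), Smchd1, a chromatin protein known to repress clustered protocadherins (-0.45, SE 0.11), Dnmt3a, a DNA methyltransferase (-0.40, SE 0.11), the cohesin subunit Stag2 and the cohesin loader Nipbl. None of the 24 was called in the deposited values, as for all genes (0%), and their median there was -0.04. With the division as a term, which rests on UNC-3, none of the 24 and no other gene was called. UNC-3 and WT-3 had the highest summed level of this list, 1950 and 2031 RPM, against 1674 to 1889 in the others.

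For UNC0642 against saline mutant in the 5 libraries, none of the 24 was called, as for all genes (0%). Of them 16 were higher, with a median of 0.04, beside 55.4% and 0.02 over all genes. With UNC-3 kept, 19 of 24 were higher, with a median of 0.11, beside 54.5% and 0.02 over all genes. In the 5 libraries Zfp644, a zinc finger partner of EHMT1/2, was at 61.0 ± 1.98 against 50.7 ± 1.53 RPM (0.26, SE 0.08, limma adjusted p = 0.83). Ehmt2, a target of the inhibitor, was at 225 ± 11.8 against 248 ± 9.19 there (-0.15, SE 0.06, limma adjusted p = 0.83).

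The neighbours of the clusters on the chromosome gave another reference. Of 26 listed, 22 were measured. In the 5 libraries 14 were higher with UNC0642, with a median of 0.05, beside 55.4% and 0.02 over all genes. With UNC-3 kept it was 10 of 22, with a median of -0.01, beside 54.5% and 0.02 over all genes. In saline mutant against wild type 16 of 22 were higher in the recovered reads (median 0.13), beside 48.4% of all genes (median -0.01). Ndufa2, a subunit of respiratory complex I, was called higher (80.0 ± 0.793 against 57.2 ± 2.28 RPM, 0.49, SE 0.10, limma adjusted p = 0.021), and Ankhd1 was called lower (-0.39, SE 0.10). These are 2 of 22 beside 11.9% of all genes. Of the 22, 13 were higher in the deposited values, with a median of 0.01 and none called, as for all genes (0%). With the division as a term, which rests on UNC-3, no gene was called either.

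All 20 listed intracellular partners were measured, and Nlgn2, a postsynaptic adhesion protein of inhibitory synapses, was the single call in the recovered reads, higher in saline mutant than in wild type (298 ± 10.8 against 246 ± 12.4, 0.28, SE 0.07, limma adjusted p = 0.03). Of 24 non-clustered protocadherins and other large cadherins, 19 were measured and 14 were lower in saline mutant than in wild type in the recovered reads (median -0.19), with Fat1 (-0.73, SE 0.20), Fat3 (-0.35, SE 0.10) and Pcdh15 (-0.50, SE 0.14) called lower. The calls are 1 of 20, higher, and 3 of 19, all lower. Beside them, 11.9% of all genes were called in the recovered reads, 741 higher and 984 lower. Of all genes, 48.4% were higher in that comparison, with a median of -0.01. The partners had a median of 0.00 in the deposited values and the cadherin list one of -0.02, with 11 of 19 lower. No gene of either list was called in those values or with the division as a term, as for all genes (0%). In the 5 libraries with UNC0642 the latter list had 6 of 19 higher and a median of -0.05, beside 38 of 53 and 0.14 for the clustered members; with UNC-3 kept it had 13 of 19 higher and a median of 0.10. No gene of either list was called there, as for all genes (0%).

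Cell type markers moved with the groups to differing degrees. Excitatory neuron markers, 7 of 7 measured, summed to 6703 to 7284 RPM in wild type, 7272 to 7737 in saline mutants and 6703 to 6994 with UNC0642. In the 5 libraries 4 of these 7 were higher with UNC0642 and 3 lower. Camk2a, the one of smallest p, was lower (-0.25, SE 0.05, limma adjusted p = 0.78). Oligodendrocyte markers, 7 of 7 measured, summed to 2938 to 4871 RPM in wild type, 1510 to 3475 in saline mutants and 2558 to 4903 with UNC0642, and in the 5 libraries all 7 were higher with UNC0642. For saline mutant against wild type, all 7 were lower in the recovered reads (median -0.67), and 6 of 7 were higher in the deposited values (0.02). Meningeal fibroblast markers, 9 of 9 measured, ran from 98.3 to 166, from 143 to 169 and from 111 to 247, and endothelial markers, 6 of 6, from 150 to 185, from 105 to 138 and from 120 to 140. In the recovered reads of saline mutant against wild type, 48.4% of all genes were higher. There all 9 meningeal markers were higher (median 0.47), and all 6 endothelial (-0.38) and all 5 oligodendrocyte precursor markers (-0.25) were lower. Astrocyte (2 of 8 higher, -0.16), microglia (1 of 7, -0.19), excitatory neuron (4 of 7, 0.08) and inhibitory neuron markers (3 of 8, -0.15) went both ways. In the deposited values all 9 meningeal markers were also higher (0.38). In the recovered reads of saline mutant against wild type, the inhibitory neuron marker Sst (0.42, SE 0.09) and the hippocampus marker Wfs1 (0.41, SE 0.09) were called higher. Gad1 (-0.36, SE 0.10), the endothelial marker Flt1 (-0.68, SE 0.17) and the immature neuron marker Sox11 (-0.70, SE 0.20) were called lower. Beside them, 11.9% of all genes were called. None was called in the deposited values or with the division as a term, as for all genes (0%). No marker was at 0 in every library. Their part in the levels of the members was not tested.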

How the data were processed

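Per the labels' protocols, libraries were stranded and made from total RNA depleted of ribosomal RNA. The build was mm9, and the tools named in the submitters' processing notes are cutadapt, TopHat2 and HTSeq (versions not given in those notes). Each deposited value is a signal per gene called CPM by the authors, with a per-gene shift between 2 sets of libraries that no label mentions.

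Whole reads were recovered by removing this shift and a mean prior of 3.0 reads: 14444 of 14444 genes had a single solution, and 100% of values were whole within 0.02 reads (largest distance 4e-05). Totals were 12035098 to 16165483 reads per library. How reads in exons shared by several members were counted is not stated, so levels per kb used bases of no other gene (GENCODE M21, GRCm38, for lengths only). Counting intervals were not drawn, and ratios to counting variance cover counting error only.

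Deposited values were tested with limma 3.58.1 in R 4.3.3, using its intensity trend, on log2(value + 0.5), and recovered reads with limma-voom scaled by total reads, with 9 libraries in each fit unless stated, Benjamini-Hochberg adjustment over 14444 genes and calls at an adjusted p under 0.05. The log2(value + 0.5) scale understates changes of low genes. Scripts were checked on simulated data. Values in every library are given for C-type members, the 3 most abundant of each alternate subgroup and the 4 of smallest p in each comparison; other members were named after their values were seen. Of the other lists, up to 3 genes of smallest p and the called genes are named. Members, lists and tests were chosen with earlier results of these data known. No sequences are printed, and the closest replicate pair differed by more than counting noise.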

Additional observations from a re-analysis of the deposited data

How the results depend on the processing

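The number of members called stayed at 0 in the deposited values for all 3 comparisons under other pseudocounts, scalings, a filter, a threshold of 0.1, the 2 groups alone, the replicate block and each library left out, and for UNC0642 against saline mutant in the 5 recovered libraries under every alternative run. These counts stood beside 0% of all genes called in each main fit. Some alternative runs did call other genes. In the 5 libraries with the replicate block 211 of 14444 genes were called. For saline mutant against wild type with the 2 groups alone it was 5 genes, and for UNC0642 against wild type without UNC-1 it was 4. For saline mutant against wild type in the deposited values, 19 of all genes had an unadjusted limma p under 0.05. The shift limits that difference by construction, so a stable 0 there says nothing about the members in the recovered reads. No member named for its p changed sign in any alternative run. The samples share only a number: same-numbered libraries correlated from -0.15 to 0.32, and the block changed no call in the deposited values (0 members) and left 1 member called in the recovered reads of saline mutant against wild type. That count was 0 in the deposited values. In the recovered reads it was 1 as such, with the block, with median-of-ratios factors and with effective library sizes. Of all 14444 genes, 1725, 2575, 1797 and 1794 were called in these runs, in that order. The member count was 2 with UNC-3 left out, beside 3550 genes, and ranged from 0 to 2 over libraries left out. At a threshold of 0.1 it was 3, a threshold at which the share of all genes called is not given here, so that this 3 cannot be read as a result about the members. For UNC0642 against wild type the member count was 4 with UNC-3 left out, beside 2959 genes. Member medians moved beyond the spread between libraries (0.0610) for saline mutant against wild type with the division as a term (-0.08), and for UNC0642 against wild type with that term (0.04); over libraries left out they ran from 0.03 (without UNC-2) to 0.13 for UNC0642 against saline mutant and from 0.07 to 0.19 (without UNC-3) for UNC0642 against wild type. The gamma sum had log2 ratios of -0.01 for both saline mutant over wild type and UNC0642 over saline mutant in the deposited values. The deposited values hold the shift by construction, and the division term rests on UNC-3 alone. Otherwise the cause was not tested. The fits with effective sizes, with UNC-3 left out and of the recovered reads without each library were chosen after seeing the data. Depth limits members such as Pcdha1 and Pcdhb6, with 3 to 27 reads per library.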
